A study of Homo sapiens with 5 samples.

Results

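Transcripts of 10 genes of the insulin-like growth factor (IGF) axis were followed in SW620, a human colon carcinoma cell line. The genes were the secreted binding proteins IGFBP1, IGFBP2, IGFBP3, IGFBP4 and IGFBP6, the ligand IGF2, the receptors IGF1R, IGF2R and INSR, and the receptor substrate IRS2. They are 10 of the 25343 gene rows in the deposited count table, and all 10 had enough reads to be tested. They were picked as members of this axis because IGFBP1 was low in the libraries called pos. Their difference between pos and neg is therefore given as a description and not as evidence.

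All cells carried a tetracycline-inducible short hairpin RNA against MUC1, a transmembrane mucin, and RNA was sequenced as stranded poly(A) libraries. The titles name 3 neg libraries (replicates 1, 2 and 3) and 2 pos libraries (replicates 1 and 3). Per the labels, cells were given doxycycline, which induces such a hairpin, or vehicle. Which of them is called pos and which neg is not written, and the names are kept for that reason. Cells were grown in triplicate per the labels, and nothing says whether the libraries of a group came from separate cultures, so the errors below may be technical. No library with doxycycline and a control hairpin is used here, so the hairpin and the drug cannot be told apart.

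IGF1 and IGF2 are small hormones that signal through the receptor tyrosine kinase IGF1R, and IGF2 also through INSR, the insulin receptor. Both receptors hand the signal to docking proteins such as IRS1 and IRS2, which recruit PI3 kinase and AKT. IGF2R, the mannose 6-phosphate receptor, does not signal this way: it takes up IGF2 for breakdown and sorts lysosomal enzymes. The binding proteins hold the ligands in the extracellular space, and proteases release them. IGFBP1 is best known from liver and decidua, where insulin represses it and fasting, hypoxia or amino acid shortage raise it.

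Between 10888704 and 14137678 reads were counted per library, and 3 reads were worth 0.189 to 0.316 CPM (reads scaled to a common library size with TMM factors). MUC1 itself had 27 and 13 reads in pos replicates 1 and 3, against 176, 252 and 218 in neg. The pos pair was less alike than any neg pair (Pearson r of log2 CPM 0.912 against 0.983 to 0.993, across genes, which are not independent replicates). Pos replicate 3 held relatively more reads of short transcripts. With tested genes split by transcript length into 5 equal groups, its median log2 ratio to neg was 1.19 for the shortest and -1.25 for the longest, against 0.37 and -0.26 in pos replicate 1. Of 10 colon epithelium markers 8 were tested, with KRT8 at 2651, EPCAM at 357 and VIL1 at 143 CPM in neg, while CDX1 and LGALS4 had at most 1 and 10 reads in any library. The tested CEACAM5, KRT20 and CDH17 were scarce, at 3.72, 1.64 and 0.943 CPM in neg and 2.55, 0.211 and 0.526 CPM in pos. The means of KRT8, KRT18, EPCAM and VIL1 were higher in pos than in neg. The intestinal factor CDX2 was the marker of that list called by edgeR, and rose from 20.4 ± 2.09 to 92.9 ± 44.5 CPM (adjusted p = 0.0337). With the length trend described below removed, CDX2 and VIL1 were called higher and KRT20 lower (adjusted p = 0.0454 in edgeR). Over all tested genes that fit called 7.31% higher and 6.65% lower. The part of CDX2 in the results below was not tested. Of 8 hepatocyte markers TTR, AFP and FGB had no read and ALB had at most 1. The summed list lay at 14.4 to 18.4 CPM in neg and 11.2 to 12.5 CPM in pos, nearly all of it SERPINA1 at 16.5 ± 2.17 and 10.8 ± 0.00569 CPM, which was not called.

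Promoter sequence is shown for 3 members that differ in their pattern below: IGFBP3, which was low in pos, its paralog IGFBP4, which was not, and IRS2, the docking protein. Each run is the 250 bases before the RefSeq start site (GRCh38.p14), 5′ to 3′ on the gene's strand. Capitals mark every match, on either strand, to the insulin response core TGTTTTG, the TATA box TATAAA, the box CCAAT, the hypoxia core ACGTG, the composite element TGATGNAA of ATF4 and CEBP factors, the ER stress element CCACG or the GC box GGGCGG. Of the 10 members, 8 have a window in the table, and those of IGFBP1 and IGF2 are missing entries.
IGFBP3 chr7:45921273-45921522 minus strand: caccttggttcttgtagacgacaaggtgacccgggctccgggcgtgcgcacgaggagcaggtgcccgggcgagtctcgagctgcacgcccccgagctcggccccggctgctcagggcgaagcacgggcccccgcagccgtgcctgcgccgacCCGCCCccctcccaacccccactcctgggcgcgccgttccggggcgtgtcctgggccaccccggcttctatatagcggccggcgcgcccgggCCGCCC
IGFBP4 chr17:40443200-40443449 plus strand: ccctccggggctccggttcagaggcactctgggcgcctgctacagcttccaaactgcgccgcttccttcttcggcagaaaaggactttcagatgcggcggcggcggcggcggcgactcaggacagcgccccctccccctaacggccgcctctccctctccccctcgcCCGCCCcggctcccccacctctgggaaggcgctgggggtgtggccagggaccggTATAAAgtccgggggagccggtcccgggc
IRS2 chr13:109786584-109786833 minus strand: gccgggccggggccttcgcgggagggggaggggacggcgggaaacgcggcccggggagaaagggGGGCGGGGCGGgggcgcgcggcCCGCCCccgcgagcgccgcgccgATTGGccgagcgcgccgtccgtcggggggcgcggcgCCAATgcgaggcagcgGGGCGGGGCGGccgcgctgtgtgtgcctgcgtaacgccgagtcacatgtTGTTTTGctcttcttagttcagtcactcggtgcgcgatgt
Of the strings searched, the IGFBP3 window matched the GC box only, at bases -98 to -93 and -6 to -1 from the start. It also reads tatata near the start, which the exact search for TATAAA did not mark. The IGFBP4 window held a GC box at -83 to -78 and a TATA box at -29 to -24. IRS2 had an insulin response core at -40 to -34 beside its GC and CCAAT boxes. Among 35116 promoter windows of this length 42.6% held the GC box, 10.7% the TATA box, 32% the CCAAT box and 4.3% the insulin response core, and 18.5%, 3.1% and 33.5% held the hypoxia core, the composite element and the ER stress element. A match is a description of the letters and not a site. The 3 windows were 71.6% to 76.4% G and C, against a median of 58.0% for all windows.

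In neg the binding proteins were the abundant part of the axis. Per kilobase of canonical transcript, IGFBP4 stood at 88.1 ± 9.47 CPM per kb (SD, n = 3, as for every neg value), IGFBP3 at 70.2 ± 7.43, IGFBP6 at 59.6 ± 9.89, IGFBP2 at 45.1 ± 7.28 and IGFBP1 at 33.8 ± 4.34. Next came IGF2R at 20.6 ± 2.18 and IRS2 at 17.1 ± 1.40 CPM per kb. The signalling receptors were lower, IGF1R at 4.77 ± 0.886 and INSR at 4.31 ± 0.564 CPM per kb, and the ligand IGF2 was lowest at 1.33 ± 0.108. The neg libraries of neighbours in this order overlapped except between IGFBP1 and IGF2R, between IRS2 and IGF1R, and between INSR and IGF2. In pos the order of the means was IGFBP6, IGFBP4, IGFBP2, IGFBP3, IGF2R, IRS2, INSR, IGF1R, IGFBP1, IGF2. By the means IGFBP1 went from place 5 to place 9. The pos libraries of neighbours overlapped except between IGFBP4 and IGFBP2, IGFBP2 and IGFBP3, IRS2 and INSR, and IGFBP1 and IGF2. In pos replicate 3 IGFBP1, at 2.23 CPM per kb, lay above INSR at 1.68 and IGF1R at 1.04. In such bulk RNA, fewer expressing cells and less RNA per cell cannot be told apart.

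IGFBP1 and IGFBP3 had the lowest mean pos values relative to neg of the 10 genes. In pos replicate 3 alone IGF2 lay under IGFBP3, and without pos replicate 1 its log2 fold change was -3.27 against -2.53 for IGFBP3. IGFBP1 had 797, 861 and 543 reads in neg replicates 1, 2 and 3, and 37 and 32 reads in pos replicates 1 and 3. As CPM these were 55.7, 54.1 and 43.6 against 2.99 and 3.37. Both pos libraries lay far under every neg library and close to each other, and the exact Poisson 95% intervals (counting error only) ended at 4.13 and 4.76 CPM in pos and began at 40.0 CPM in the lowest neg library. The group means were 51.2 ± 6.56 CPM in neg and 3.18 ± 0.269 CPM in pos (SD, n = 2, as for every pos value), a 16.1-fold difference (log2 fold change -4.01, SE 0.26). IGFBP1 ranked 84 of 13604 tested genes from the most lowered.

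IGFBP3 is the main carrier of IGFs in serum and a known p53 target. Its reads numbered 2933, 2664 and 2213 in neg, or 205, 168 and 178 CPM, and 263 and 292 in pos, or 21.3 and 30.8 CPM. The groups were again well apart, with means of 184 ± 19.4 and 26.0 ± 6.72 CPM, a 7.05-fold difference (log2 fold change -2.82, SE 0.26). IGFBP3 ranked 165 from the most lowered. At the lengths of IGFBP1 (1514 nt) and IGFBP3 (2613 nt) the length trend of all tested genes was above 0 in both pos libraries. At the length of IGFBP1 it was 0.26 in pos replicate 1 and 0.89 in pos replicate 3 on the log2 scale, while IGFBP1 itself was at -4.02 and -3.85. For IGFBP3 the trend was 0.05 and 0.18 and the gene was at -3.09 and -2.56. With each library's length trend removed the log2 fold changes were -4.56 (SE 0.23) for IGFBP1 and -2.94 (SE 0.20) for IGFBP3.

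**Figure D1:**
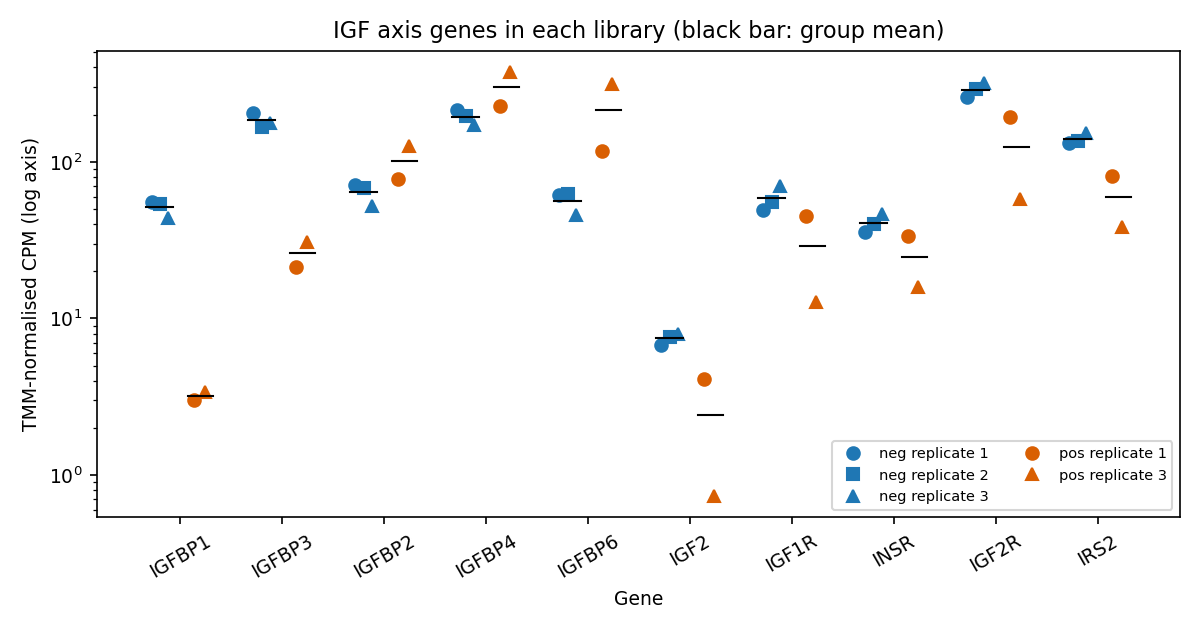
TMM-normalised CPM on a log axis of the 10 genes in each of the 5 libraries, with neg in blue, pos in orange, the symbol giving the replicate number and a black bar for the group mean. IGFBP1 and IGFBP3 lie low and close together in both pos libraries, whereas for IGFBP6, IGF2, IGF1R and IGF2R pos replicate 3 lies much farther from neg than pos replicate 1.

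Both genes lie side by side on chromosome 7 (GRCh38, GENCODE 44). IGFBP1 runs from 45888360 to 45893660 on the plus strand and IGFBP3 from 45912245 to 45921874 on the minus strand, so that their ends face each other. There are 18584 bp between them and no annotated gene lies wholly within that gap. Among the other protein-coding genes with a start site within 2000 kb of that of IGFBP1, 28 were in the table and 19 were tested. Of these edgeR called 0 lower and 1 higher, at log2 fold changes from -1.19 to 1.68, with 1 lower and 3 higher at an unadjusted p under 0.05, and DESeq2 likewise called 0 lower and 1 higher. Over all tested genes edgeR called 4.13% lower and 5.06% higher, so its counts at the adjusted threshold lie near the background. Of 13604 tested genes 4710 had an unadjusted p under 0.05 in edgeR, and DESeq2 called 23.2%. The gene called higher was PPIA, the cyclophilin A gene, at 523 ± 68.4 CPM in neg and 1680 ± 766 CPM in pos. No tested neighbour was close to the pair. The nearest were TBRG4 at -776.3 kb and TNS3 at 1694.2 kb from the start site of IGFBP1. Closer in, ADCY1 at -314.2 kb and RAMP3 at -730.6 kb were not tested, and CCDC201 at -15.3 kb had no row.

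The other binding proteins were not low in pos. IGFBP6 (chromosome 12, 53097436 to 53102345) prefers IGF2 over IGF1. It had 876, 993 and 568 reads in neg (61.3, 62.4 and 45.7 CPM) and 1453 and 2967 in pos (118 and 313 CPM). Every pos library was above every neg library, but the pos values differed widely from each other. The means were 56.4 ± 9.36 and 215 ± 138 CPM, and the log2 fold change was 1.93 (SE 0.42), or 1.03 without pos replicate 3 and 2.52 without pos replicate 1. Its transcript of 947 nt is the shortest of the 10, and the trend at that length was 0.46 in pos replicate 1 and 1.40 in pos replicate 3, where the gene was at 1.07 and 2.48. With the trend removed the log2 fold change was 0.86 (SE 0.19).

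IGFBP2 and IGFBP4 were slightly higher in pos without being called. IGFBP2 (chromosome 2, 216632828 to 216664436) had 71.1, 68.2 and 52.0 CPM in neg and 77.1 and 127 CPM in pos. The groups did not overlap, though pos replicate 1 was just above the highest neg library. Its log2 fold change was 0.67 (SE 0.28), and 0.01 (SE 0.15) with the length trend removed. IGFBP4 (chromosome 17, 40443450 to 40457725), a substrate of the protease PAPPA, had 214, 197 and 172 CPM in neg and 228 and 374 CPM in pos. Here too pos replicate 1 was close to neg. The log2 fold change was 0.63 (SE 0.26), and 0.34 (SE 0.16) with the trend removed.

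The make-up of the binding protein transcripts differed accordingly. Of the summed CPM per kb of the 5 genes, IGFBP1 took 11.4% ± 0.366 in neg and 0.523% ± 0.217 in pos, and IGFBP3 23.8% ± 2.53 and 2.37% ± 0.590. IGFBP6 took 20.0% ± 1.61 in neg, and 42.5% and 54.7% in pos replicates 1 and 3. IGFBP4 stayed between 28.1% and 35.4%, and IGFBP2 between 14.1% and 18.7%, in all 5 libraries. The sum itself was 327, 303 and 260 CPM per kb in neg and 292 and 604 in pos, so pos replicate 1 lay among the neg libraries. These shares carry the length trend, since IGFBP6 has the shortest transcript.

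**Figure D2:**
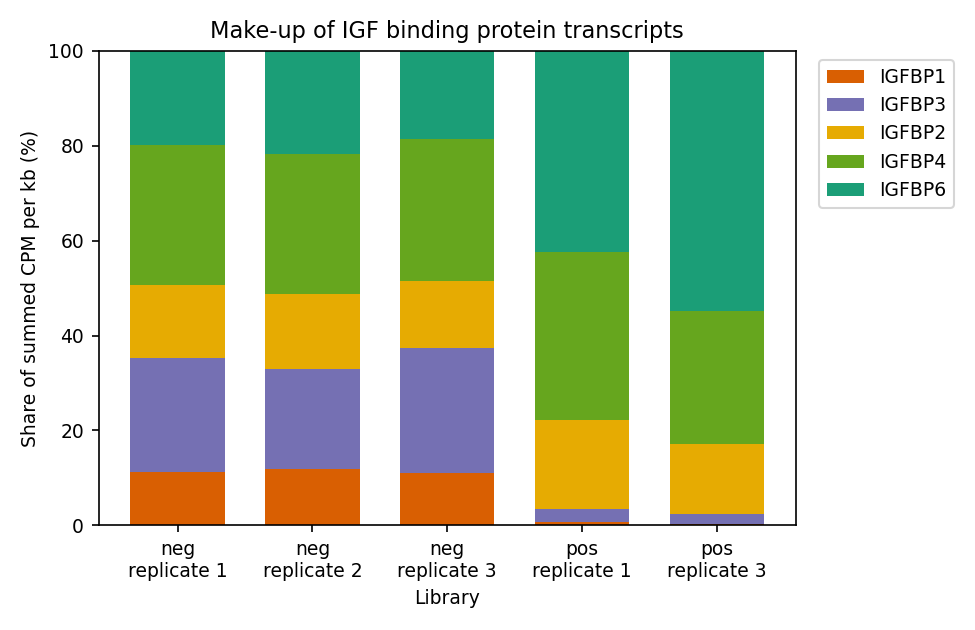
Stacked bars of the share of each binding protein in the summed CPM per kb of IGFBP1, IGFBP2, IGFBP3, IGFBP4 and IGFBP6, in percent, for each library. IGFBP1 and IGFBP3 together shrink to a thin band in both pos libraries, and IGFBP6 widens to 42.5% and 54.7%.

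The ligand was scarce. IGF2 (chromosome 11, 2129112 to 2158391) had 97, 121 and 99 reads in neg (6.78, 7.61 and 7.96 CPM) and 51 and 7 in pos (4.13 and 0.738 CPM). Both pos libraries were under neg, and pos replicate 3 was far under pos replicate 1. Its Poisson interval of 0.297 to 1.52 CPM did not reach that of pos replicate 1, 3.07 to 5.43 CPM. The log2 fold change of -1.57 (SE 0.62) was not called in edgeR and was -1.19 (SE 0.44) with the length trend removed. IGF2 shares exons with the INS-IGF2 read-through gene, which had no read, and with IGF2-AS on the opposite strand, which had at most 7 reads in any library. Of the other ligands INS had no read and IGF1 between 1 and 12, and neither was tested.

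The receptors and IRS2, all with long transcripts, were lower in pos replicate 3 than in pos replicate 1. IGF1R (chromosome 15, 98648539 to 98964530; 12235 nt) had 49.1, 55.6 and 70.3 CPM in neg and 45.3 and 12.8 CPM in pos. INSR (chromosome 19, 7112255 to 7294414; 9463 nt) had 35.9, 40.1 and 46.5 CPM in neg and 33.5 and 15.9 CPM in pos. For both signalling receptors pos replicate 1 was just under the lowest neg library and pos replicate 3 well under it. The log2 fold changes of -1.0 (SE 0.53) for IGF1R and -0.72 (SE 0.35) for INSR were not called. The log2 ratios of pos replicates 1 and 3 to the neg mean were -0.35 and -2.16 for IGF1R, where the trend at that length was -0.36 and -1.56. For INSR they were -0.28 and -1.34, and the trend was -0.31 and -1.40. With the trend removed the log2 fold changes were -0.25 (SE 0.21) for IGF1R and 0.04 (SE 0.15) for INSR, which turned the direction of INSR.

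IGF2R (chromosome 6, 159969082 to 160113507; 14061 nt), the longest of the 10, had 258, 291 and 319 CPM in neg and 192 and 57.6 CPM in pos. Pos replicate 1 was moderately and pos replicate 3 strongly under neg. The log2 fold change was -1.21 (SE 0.50), not called, and -0.41 (SE 0.18) with the trend removed. IRS2 (chromosome 13, 109752695 to 109786583; 8156 nt), which docks PI3 kinase to both signalling receptors, had 132, 135 and 153 CPM in neg and 81.2 and 38.2 CPM in pos. Both pos libraries were clearly apart from neg. The log2 fold change of -1.23 (SE 0.35) was not called in edgeR, whereas the value of -0.54 (SE 0.14) with the length trend removed was. IRS2 lay under the trend in both libraries, at -0.78 and -1.87 against -0.28 and -1.29.

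**Figure D3:**
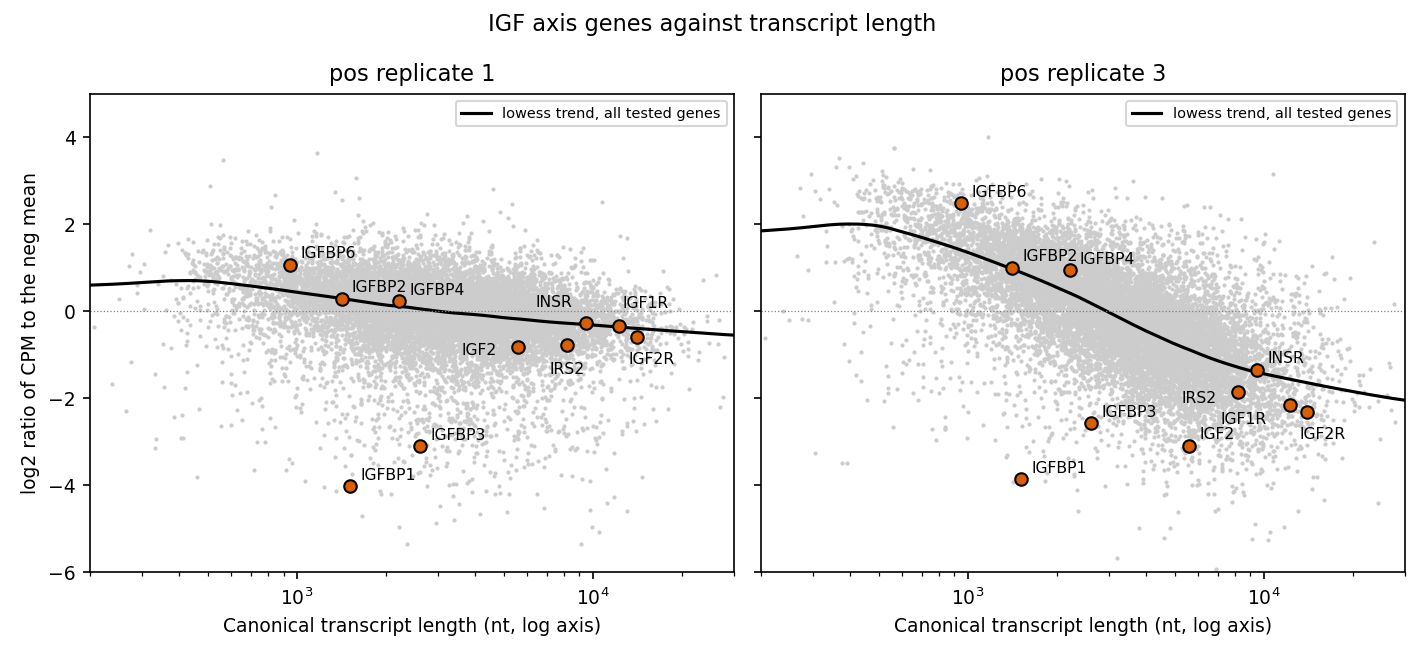
Log2 ratio of CPM to the neg mean against canonical transcript length (log axis) in pos replicate 1 (left) and pos replicate 3 (right), with all tested genes in grey, their lowess trend as a black line and the 10 genes in orange. IGFBP2, INSR and, in the left panel, IGF1R lie on the trend, while IGFBP1 and IGFBP3 lie far under it in both panels.

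Of the 10 genes, IGFBP1 and IGFBP3 were called lower and IGFBP6 higher at an adjusted p under 0.05 (edgeR quasi-likelihood test, Benjamini-Hochberg over all 13604 tested genes), and 7 were not called. The test called 9.2% of all tested genes, 5.06% higher and 4.13% lower. For all 10 genes every pos library lay on the same side of every neg library, which held for 56% of tested genes. The median log2 fold change of the 10 was -1.11, against -0.05 for all tested genes, and -0.33 against 0.02 with the length trend removed. In that fit IGFBP1, IGFBP3 and IRS2 were called lower and IGFBP6 higher, where 14% of tested genes were called, 7.31% higher and 6.65% lower. Since the genes were chosen on this comparison, nothing is read from these counts. Without any of the neg libraries 0 genes were called by edgeR, of the 10 or of all tested genes, although 4 of the 10 in each case and 2510 to 3033 of all had an unadjusted p under 0.05. DESeq2 on all libraries called 6 of the 10, adding IGF2, IGF2R and IRS2, where it called 23.2% of tested genes.

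**Figure D4:**
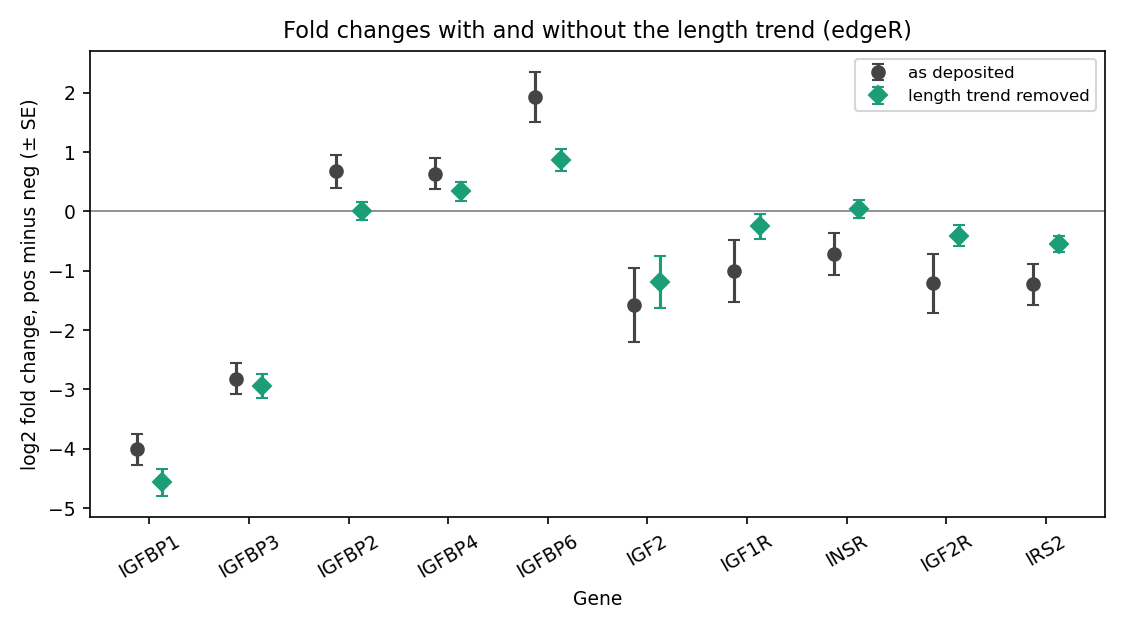
Log2 fold change of pos minus neg for the 10 genes, with bars for SE, from edgeR on the counts as deposited (grey circles) and with each library's length trend removed (green diamonds). IGFBP1 and IGFBP3 keep values of -2.82 or lower in both fits, and the receptors and IGFBP2 move toward 0 when the trend is removed.

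The remaining genes of the pathway were described from 9 lists of 115 further genes. Of these 97 were tested, 4 were called higher and 5 lower, at a median log2 fold change of -0.39 against -0.05 for all tested genes. Over all tested genes edgeR called 5.06% higher and 4.13% lower, the shares to set beside each edgeR count below. The transcripts of the 97 were longer than those of all tested genes (median 4247 against 3241.5 nt). With the length trend removed the median was -0.03, with 2 called higher and 12 lower, where 7.31% and 6.65% of all tested genes were. Of the other binding proteins IGFBPL1 was the only gene tested and was not called, at 6.74 ± 1.36 CPM in neg and 3.89 ± 1.5 CPM in pos. IGFBP5, IGFBP7 and IGFALS, which holds IGFBP3 in its serum complex, had at most 4 reads in any library. The insulin receptor relative INSRR had at most 3.

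Among 12 binding protein proteases and their regulators 7 were tested, 1 rose and 1 fell, at a median of -0.48. STC2, a secreted inhibitor of the protease PAPPA, fell from 222 ± 16.4 to 64.6 ± 22.5 CPM (log2 fold change -1.78, SE 0.28, adjusted p = 0.0345 in edgeR). HTRA1, a secreted serine protease, rose from 35.2 ± 2.89 to 77.8 ± 20.7 CPM (1.14, SE 0.23). With the length trend removed 1 of the 7 was called higher and 2 lower, where 7.31% and 6.65% of all tested genes were. The gene added was ADAM17, at 144 ± 1.88 CPM in neg and 40.1 ± 29.1 CPM in pos (-1.60, adjusted p = 0.0305 in edgeR). PAPPA and PAPPA2 had at most 3 reads in any library. Of 17 adaptors and phosphatases at the receptors other than IRS2, 15 were tested, 2 fell and none rose, at a median of -0.54. At an unadjusted p under 0.05 in edgeR 4 were lower and 1 higher, and DESeq2 called 2 lower. Of all 13604 tested genes 4710 had an unadjusted p under 0.05, and DESeq2 called 1362 lower. GRB10, which binds INSR and IGF1R and dampens their signal, had 82.0, 73.7 and 73.0 CPM in neg and 15.5 and 16.2 CPM in pos. Its pos libraries agreed closely and lay far under neg (log2 fold change -2.27, SE 0.20, adjusted p = 0.0261 in edgeR), and with the length trend removed the value was -1.73. The adaptor SH2B3 fell from 71.9 ± 3.33 to 24.5 ± 11.8 CPM (-1.55, SE 0.33). IRS1, the relative of IRS2, was not called at -0.57 (SE 0.44), and at 0.13 with the trend removed. IRS4 had no read and GRB14 at most 3.

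Downstream, 30 genes of PI3 kinase, AKT, mTOR and the FOXO factors were all tested. DESeq2 called 2 higher and 4 lower, where it called 23.2% of all tested genes (1799 higher and 1362 lower of 13604). By edgeR AKT1S1 alone was called. This mTORC1 inhibitor rose from 27.6 ± 2.31 to 54.2 ± 11.1 CPM (log2 fold change 0.97, SE 0.22), and was not called with the length trend removed (0.52, adjusted p = 0.0578 in edgeR). The list's median was -0.39, and 0.07 with the trend removed. FOXO1 and FOXO3, factors that AKT keeps out of the nucleus, were not called, at 15.5 ± 2.04 and 45.0 ± 6.33 CPM in neg and 11.9 ± 6.98 and 19.8 ± 12.3 CPM in pos. Of 15 genes listed as FOXO targets, without IRS2 and IGFBP1, 14 were tested, 1 rose and 1 fell, at a median of -0.48. TXNIP, an inhibitor of thioredoxin and glucose uptake, rose from 71.0 ± 0.612 to 305 ± 34.3 CPM (2.10, SE 0.18, adjusted p = 0.0261 in edgeR), and KLF15, a fasting-induced factor, fell from 28.2 ± 4.01 to 10.8 ± 0.0689 CPM (-1.38, SE 0.23). With the length trend removed 1 of the 14 was called higher and 4 lower, where 7.31% and 6.65% of all tested genes were.

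Of 13 factors listed as inducers of IGFBP1, 12 were tested and 1 was called, at a median of -0.91. The stress factor ATF3 fell from 61.4 ± 8.25 to 24 ± 7.96 CPM (log2 fold change -1.36, SE 0.28, adjusted p = 0.0448 in edgeR). With the length trend removed 4 of the 12 were called lower, where 6.65% of all tested genes were. These were ATF3, DDIT3, CEBPB and NFE2L2. DESeq2 on the counts as deposited called 5 of the 12 lower and 0 higher. Of all 13604 tested genes it called 1362 lower and 1799 higher, 23.2% in either direction. HIF1A was not called, at 148 ± 15.2 CPM (neg) and 53.2 ± 41.3 CPM (pos). ATF4 was not called either, with 940 ± 113 and 1144 ± 515 CPM. Among 12 genes of mannose 6-phosphate sorting, the second task of IGF2R, the retromer subunit VPS29 rose from 43.7 ± 2.23 to 88.2 ± 15.0 CPM (1.0, SE 0.20) and 11 were not called. With the trend removed VPS29 was not called (0.44, adjusted p = 0.104 in edgeR). None of 6 tested regulators of IGF2 RNA was called by edgeR or DESeq2, and 0 had an unadjusted p under 0.05. Among them were the RNA-binding proteins IGF2BP1, IGF2BP2 and IGF2BP3, at 98.6, 181 and 48.3 CPM in neg and 83.2, 121 and 36.5 CPM in pos.

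**Figure D5:**
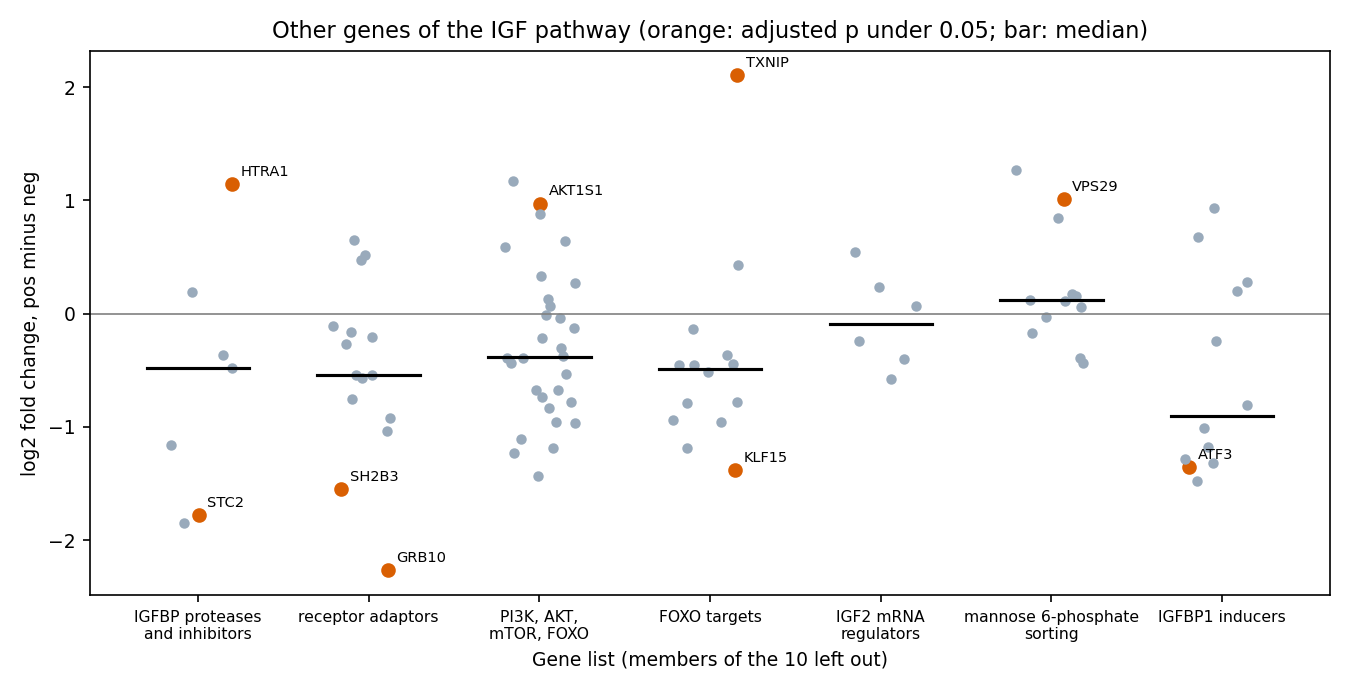
Log2 fold change of pos minus neg for the tested genes of 7 lists, the 10 genes left out, with a black bar for each list's median and genes at an adjusted p under 0.05 in orange. GRB10 at -2.27 and TXNIP at 2.10 are the farthest from 0 in either direction.

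The 5 genes whose pattern was most like that of IGFBP1 were TIE1, CREB5, SHC4, TRPV6 and UNC5B. Likeness was the root mean square difference of the log2 ratios to the neg mean over the 5 libraries, among 10829 genes with at least 5 CPM in neg, and ran from 0.28 to 0.40. TIE1, a receptor tyrosine kinase, went from 8.54 ± 1.75 to 0.531 ± 0.293 CPM, and CREB5, a bZIP factor, from 23.4 ± 4.39 to 1.35 ± 0.267 CPM. SHC4, an adaptor of the Shc family, went from 19.7 ± 0.398 to 1.75 ± 0.0658 CPM. The calcium channel gene TRPV6 went from 31.6 ± 2.18 to 2.60 ± 1.14 CPM and the netrin receptor gene UNC5B from 188 ± 7.64 to 11.6 ± 5.68 CPM. IGFBP3 was the 25th of the 10829, at 0.72.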

How the data were processed

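Per the labels' protocols, the 5 SW620 libraries were made with the TruSeq Stranded mRNA kit. The authors deposited raw counts per gene symbol after alignment with STAR (2.5.2b in the submitters' processing notes, with CASAVA 1.8.2 and, for their own comparison, DESeq2 1.24.0). The build is hg19 in those notes and GRCh38 in the labels, and how reads were counted, and whether by strand, is not given in the sources used here. Coordinates and canonical transcript lengths therefore come from GENCODE 44, which matched 97.4% of tested genes. Promoter windows come from RefSeq.

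The 92 spike-in rows, all at 0, were left out. In R 4.3.3, edgeR 4.0.16 kept 13604 genes (filterByExpr, minimum count 10, minimum total 15), scaled them by TMM and tested pos against neg with glmQLFit and glmQLFTest, two-sided. P-values were adjusted by Benjamini-Hochberg, with a threshold of 0.05. SE is the log2 fold change over the square root of F. Log2 CPM used a prior count of 2. The length trend was a lowess (span 0.3) of each library's log2 CPM deviation on log2 length, removed as offsets. Alternatives were DESeq2 1.42.0, limma-voom (limma 3.58.1), other scalings, filters, a replicate block, a threshold of 0.01 and each library left out. With either pos library left out, the other was assumed to vary like neg.

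The members and lists were chosen with earlier results of these data known. A gene of the lists is not reported here and was left out of their counts. Text names the 10 members, up to 4 called genes per direction of each list, untested binding proteins, ligands, receptors and adaptors, and the 5 genes most like IGFBP1. PPIA and list genes named without a call (such as FOXO1, HIF1A and the IGF2BP genes) were chosen after their values were seen. On simulated counts for pos against neg (13366 genes) edgeR called 71 of 106 genes changed 4-fold, 4 of 91 changed 2-fold and 4 of 13169 unchanged. Library pairs of a group differed by more than sampling noise (chi-square per degree of freedom 6.35 to 23.8 in neg and 162 in pos).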

Additional observations from a re-analysis of the deposited data

How the results depend on the processing

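The log2 fold changes of IGFBP1 (-4.78 to -3.87) and IGFBP3 (-3.24 to -2.53) kept their direction under all 18 alternatives, as did those of IGFBP4, IGFBP6, IGF2, IGF2R and IRS2. The threshold of 0.01 is among these and reuses the main fit, so it could not change a direction. IGFBP6 ranged from 0.61 to 2.52 and was not called by limma-voom (adjusted p = 0.0583), with library size only (0.0597) or with the replicate block (0.208). With the length trend removed, the block ended the calls of IGFBP6 (adjusted p = 0.274) and IRS2 (0.631). INSR turned to 0.0401 with the length trend removed, to 0.0414 with the block as well, and to 0.0633 and 0.0179 with pos replicates 1 and 3 also left out. In that last fit IGFBP2 turned to -0.0148 and IGF1R to 0.00048.

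Of the 115 other genes 97 were tested in the main fit, and untested genes cannot be called. Of all tested genes, of the 10 and of the 115 others, DESeq2 called 3161, 6 and 22. Library size only, under which the median of all genes went from -0.05 to -0.41 (log2), called 606 (148 higher, 458 lower, against 689 and 562), 2 and 6. Removing the length trend called 1900, 4 and 14. With the replicate block these were 87, 2 and 0. Under it 15 of the 115 and 1669 of all tested genes had an unadjusted p under 0.05. With the block and without the length trend the counts were 415, 2 and 9. The numbers share no stated batch, so no pairing is assumed. Same-numbered libraries deviated from their group means with r = -0.443 and -0.448 across genes. With 2 pos libraries the pos deviations mirror each other, so these values cannot show a pairing or its absence. A threshold of 0.01 left 1, 0 and 0 (5 of the 10, 30 of the 115 and 4710 of all tested genes at an unadjusted p under 0.05). Leaving out each library in turn gave 0 to 8819 genes, 0 to 10 of the 10 and 0 to 74 of the 115. The 0 came from each neg library left out, with 4 of the 10 and 14 to 21 of the 115 at an unadjusted p under 0.05, and the high counts from pos replicate 1 left out. With pos replicates 1 and 3 left out and the length trend removed the counts were 7215, 8 and 63, and 4987, 5 and 36. The cause was not tested. With 32 to 37 reads of IGFBP1 and 7 of IGF2 in pos libraries, depth limits the size of those differences.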
